A study of Mus musculus with 24 samples.

Results

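The 10 genes described here encode transcription factors that are used to define endothelial identity: the ETS factors Erg, Fli1 and Ets1, the SOX factors Sox7, Sox17 and Sox18, and Tal1, Mef2c, Epas1 and Nr2f2. They were chosen by gene symbol, and all 10 of 10 were found among the 18091 genes of the wild-type table and among the 18297 genes of the knockout table. RNA was sequenced from primary mouse brain microvascular endothelial cells, cultured from pooled brains and grown on porous inserts that let agents be given from either face of the layer. The series holds 24 libraries in 6 groups of 4, with 12 mice behind each replicate. In 5 groups the cells came from C57B/6J wild-type mice and received, for 24 h, vehicle, 500 nM of the S1P4 agonist CYM50260 on the apical side, the same agonist on the basal side, 50 nM S1P (sphingosine-1-phosphate, a signalling lipid of blood that acts through G-protein-coupled receptors) on the apical side, or 50 nM S1P on the basal side. The last group held vehicle-treated cells labelled S1P4 KO/KO, described as a global knockout.

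All 6 groups shared the vessel source (cortex and midbrain microvessels), 48 h of puromycin to remove other cell types, 48 h of growth after seeding before treatment, and the pooling of 3 inserts into 1 sample. The ages of the mice are not given in the labels. As a model these are cultured cells away from blood flow and from the other cells of the brain wall. By the study's own description, S1P from the basal side opens the barrier and the other 3 treatments tighten it.

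Endothelial cells have no single master regulator. ETS factors bind a GGAA core in the promoters and enhancers of most endothelial genes, SOXF factors (Sox7, Sox17, Sox18) act beside them in arterial and lymphatic specification, and Tal1, Mef2c, Epas1 and Nr2f2 add haemato-endothelial, calcium-responsive, oxygen-responsive and venous inputs. In the adult brain Erg and Fli1 are known to maintain endothelial gene expression, and Sox17 has been tied to barrier formation and arterial identity.

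The gene positions in the wild-type table are on the mm10 build. Erg (ENSMUSG00000040732) lies at chr16:95359169-95586593 on the minus strand, Fli1 (ENSMUSG00000016087) at chr9:32422204-32542861 on the minus strand, and Ets1 (ENSMUSG00000032035) at chr9:32636221-32757820 on the plus strand, so that Fli1 and Ets1 sit on the same chromosome. Sox7 (ENSMUSG00000063060) lies at chr14:63943673-63950732 (plus), Sox17 (ENSMUSG00000025902) at chr1:4490931-4497354 (minus) and Sox18 (ENSMUSG00000046470) at chr2:181669836-181671640 (minus). Tal1 (ENSMUSG00000028717) lies at chr4:115056426-115071755 (plus) and Mef2c (ENSMUSG00000005583) at chr13:83504034-83667080 (plus). Epas1 (ENSMUSG00000024140) lies at chr17:86753700-86833410 (plus) and Nr2f2 (ENSMUSG00000030551) at chr7:70351944-70366735 (minus). All 10 are protein-coding genes, and the values below are counts over whole genes. Exons of Sox17 overlap exons of Gm37587 by 804 bases, and exons of Nr2f2 overlap exons of B130024G19Rik by 643 bases, on the opposite strand in both cases. The labels do not state the strand setting used for counting, so reads from the opposite strand could be counted in these 2 genes.

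RefSeq promoter sequences (GRCm38.p6, the assembly of mm10) were matched for 4 of the 10 genes, Erg, Tal1, Mef2c and Nr2f2. Printed here are the 250 bases before the start nearest the gene's start in the table, for Mef2c and Nr2f2 because they varied most over the libraries, and for Erg as an ETS gene that varied little. Capitals mark GGAA, or TTCC where the core is on the other strand, and each sequence reads 5′ to 3′ on the gene's own strand.
Nr2f2, chr7:70366747-70366996, minus strand: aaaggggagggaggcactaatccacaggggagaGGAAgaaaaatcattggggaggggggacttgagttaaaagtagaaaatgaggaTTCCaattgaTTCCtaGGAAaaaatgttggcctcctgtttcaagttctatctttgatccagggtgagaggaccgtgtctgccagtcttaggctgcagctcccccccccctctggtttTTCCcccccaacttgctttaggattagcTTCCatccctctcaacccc
Mef2c, chr13:83503784-83504033, plus strand: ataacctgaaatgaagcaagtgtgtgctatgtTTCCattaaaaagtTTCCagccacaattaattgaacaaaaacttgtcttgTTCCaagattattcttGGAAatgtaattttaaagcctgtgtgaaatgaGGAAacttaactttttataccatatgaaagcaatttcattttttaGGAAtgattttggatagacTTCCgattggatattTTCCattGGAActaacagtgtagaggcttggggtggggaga
Erg, chr16:95586594-95586843, minus strand: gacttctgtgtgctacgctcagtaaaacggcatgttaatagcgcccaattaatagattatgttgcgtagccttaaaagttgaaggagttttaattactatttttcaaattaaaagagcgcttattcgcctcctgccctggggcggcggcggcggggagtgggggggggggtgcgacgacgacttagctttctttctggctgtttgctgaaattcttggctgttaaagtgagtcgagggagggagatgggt
These Mef2c and Nr2f2 windows held 9 and 6 such cores, the Tal1 window at the table's start held 4, and the Erg window held 0. RefSeq lists 2 further Erg starts, whose windows held 4 and 2 cores, 2 further Mef2c starts with 2 and 1, and 1 further Tal1 start with 3. Of 32851 RefSeq promoter windows of the same length, 93.4% held at least 1 core on either strand, with a median of 3. The SOX core ACAAT, searched on both strands, was present once in the printed Mef2c window and once in a further Erg window, and in no other window of the 4 genes, against 27.7% of all windows. A match describes letters only, and which start site these cells use is not known from the data.

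Library totals of normalized counts, the authors' whole-number values after scaling each library, were 4491592 to 4720877 in the 20 wild-type libraries and 17361639 to 17833560 in the 4 knockout libraries, which were normalized in a separate table. Because these totals are near-equal by construction, they do not give the sequencing depth. All 12 of 12 endothelial markers listed for the check were in the wild-type table and summed to between 19511 and 23720 per library, while erythroid markers (0 of 6 in the table), leukocyte markers (8 of 10 in the table, summed 4 to 59), neuron markers (3 of 6, summed 1 to 14) and oligodendrocyte markers (2 of 5, summed 2 to 17) were at or near 0. Astrocyte markers (4 of 5 in the table) summed to 59 to 123. Pericyte (276 to 2856), smooth muscle (983 to 2591) and fibroblast markers (84 to 841) were not at 0 and are given beside Nr2f2. Xist is the RNA of the inactive X chromosome. In most libraries of replicates 2, 3 and 4 it lay at 2251 to 2555, 1063 to 1608 and 173 to 244, in that order. In 4 libraries it lay outside the range given for their replicate number. They were S1P apical replicates 3 (525) and 4 (1417), S1P basal replicate 2 (552) and agonist apical replicate 2 (1382). Values without these libraries are given where they moved a main difference by over 1.5 times or turned its sign, and for the differences with the smallest p. Leaving them out keeps only replicates 1 and 2 of apical S1P, so the groups then differ in replicate numbers as well as in treatment. S1pr4, the gene of the receptor named in the knockout label, was read at 128, 130, 189 and 153 in wild-type vehicle and at 250, 261, 349 and 260 in the libraries labelled knockout. Scaled to a common total of 1000000 per library, that is 27.9, 28.5, 42.0 and 32.9 against 14.2, 15.0, 19.8 and 14.6, so the S1pr4 transcript was still counted under the knockout label. The median log2 difference between the tables on this scale ran from −1.55 to 0.16 over genes of rising level, so the lower S1pr4 values cannot be told apart from the shift between the tables. Whether the deleted part lies inside the counted exons is not given.

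None of the 10 factors passed the test in any of the 6 treatment comparisons. Differences were estimated as log2(normalized count + 1) with limma, over all 20 wild-type libraries, and called at an adjusted p under 0.05 after Benjamini-Hochberg adjustment over 12249 genes with a mean of at least 10, a filter that all 10 factors passed. In basal S1P against vehicle, limma called 0 of 10 factors, where 0.0245% of all tested genes (3 of 12249) were called. In basal against apical S1P it called 0 of 10, again beside 0.0245% of genes, and in basal S1P against the other 3 treatments combined 0 of 10 beside 0.049% (6 genes). Apical S1P, apical agonist and basal agonist against vehicle each gave 0 of 10 factors and 0% of genes. With so few genes called anywhere, a count of 0 says little about these factors in particular.

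At an unadjusted limma p under 0.05, the 6 comparisons held 0 (basal S1P against vehicle), 1 (apical S1P), 2 (apical agonist), 0 (basal agonist), 1 (basal against apical S1P) and 0 (basal S1P against the other 3) of the 10 factors. The shares of all genes were 5.22%, 0.996%, 1.09%, 0.31%, 4.01% and 5.63%. Where no gene differs, a fraction of 0.05 is reached on average. The fit, which has no replicate block, was therefore cautious for apical S1P and either agonist against vehicle. In none of the 6 comparisons did the libraries of the groups compared stand apart without overlap for any factor, where 2.11%, 1.32%, 0.678%, 0.588%, 1.4% and 0.253% of genes did so in the same order. Median log2 differences over the 10 factors were −0.02, −0.03, 0.07, 0.05, 0.02 and −0.04, beside medians over all genes of 0.00 to the second decimal in each case.

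**Figure D1:**
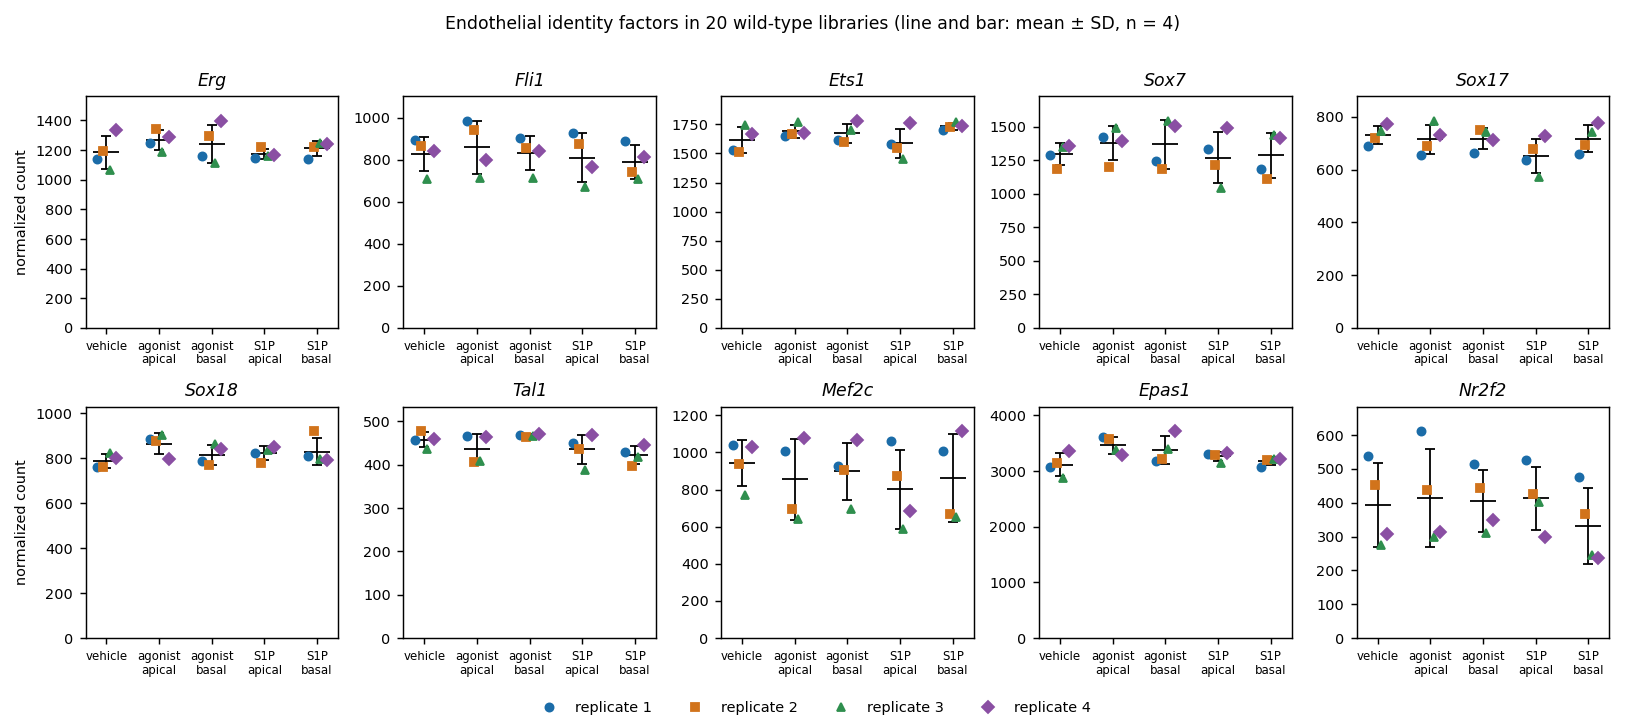
Normalized count (linear axis from 0) of each of the 10 factors in the 20 wild-type libraries, by treatment group. Points are libraries, with shape and colour for the replicate number, and the line and bar are the mean ± SD of 4 libraries. Nr2f2 runs from 237 to 611 and is highest in replicates 1 and 2 in every group, while the groups of Epas1, between 2880 and 3713, overlap for every treatment.

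For the 3 ETS factors, the libraries of every treatment overlapped those of vehicle. Erg, which keeps endothelial cells from switching on other programmes, was read at 1140, 1193, 1069 and 1336 in vehicle (mean 1185 ± 113 SD, n = 4). With basal S1P it was 1137, 1218, 1245 and 1244, and the remaining 12 wild-type libraries lay between 1115 and 1395. The basal S1P values all fell inside the vehicle range, and the log2 difference was 0.04 ± 0.07 (SE) against vehicle and 0.04 ± 0.07 against apical S1P, and without the 4 libraries named for Xist 0.033 and 0.026.

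Fli1, the closest relative of Erg in this set, was read at 894, 865, 709 and 843 in vehicle and 892, 741, 708 and 815 with basal S1P. The groups overlapped, and the library of replicate 3 was the lowest in each of the 5 wild-type groups, at 671 to 716. The log2 difference was −0.07 ± 0.12 against vehicle and −0.03 ± 0.12 against apical S1P, and without the 4 libraries named for Xist −0.041 and −0.17. In the last, apical S1P keeps only replicates 1 and 2, while basal S1P keeps the low replicate 3.

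Ets1, an ETS factor of migrating and sprouting endothelium, was read at 1527, 1515, 1745 and 1665 in vehicle and at 1579, 1549, 1456 and 1758 with apical S1P. With basal S1P its 4 libraries were close together, at 1700, 1723, 1771 and 1738. These lay near the top of both other groups and overlapped them. Basal minus apical S1P was 0.13 ± 0.06 on the log2 scale (limma adjusted p = 0.999) and basal S1P minus vehicle 0.11 ± 0.06 (adjusted p = 0.756). They were 0.15 and 0.11 without the 4 libraries named for Xist.

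The 4 differences counted above at an unadjusted p under 0.05 were those of Ets1 (basal against apical S1P), Sox17 (apical S1P), and Sox18 and Epas1 (apical agonist), and none passed adjustment. Sox17, which supports arterial identity, was read at 689, 721, 746 and 772 in vehicle and 637, 677, 573 and 726 with apical S1P. Of the apical S1P libraries 3 lay below every vehicle library and replicate 4 lay among them. The log2 difference was −0.17 ± 0.08 (limma adjusted p = 1.0), and −0.11 without apical S1P replicate 3, the lowest of all 20 libraries for this gene. It was −0.16 without the 4 libraries named for Xist. With basal S1P Sox17 was 658, 694, 744 and 777, a difference of −0.03 ± 0.08 from vehicle (−0.013 without the 4 libraries named for Xist) and of 0.14 ± 0.08 from apical S1P.

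Sox18, a factor of lymphatic and vascular development, was read at 762, 762, 825 and 800 in vehicle and 886, 876, 903 and 799 with apical agonist. The agonist libraries lay above all vehicle libraries in 3 of 4 cases, and replicate 4 fell inside the vehicle range. The log2 difference was 0.14 ± 0.06 (limma adjusted p = 1.0). With basal S1P it was 812, 920, 796 and 792, with replicate 2, one of the libraries named for Xist, apart from the other 3. The difference was 0.07 ± 0.06 from vehicle and 0.01 ± 0.06 from apical S1P. These were 0.024 and −0.0040 without the 4 libraries named for Xist, and for apical agonist 0.13.

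Sox7, often coexpressed with the other SOXF genes, was read at 1294, 1184, 1354 and 1356 in vehicle and 1183, 1109, 1440 and 1419 with basal S1P. The basal S1P libraries lay on both sides of the vehicle range, 2 above and 2 below it. The difference was −0.02 ± 0.11 from vehicle and 0.02 ± 0.11 from apical S1P, whose own libraries ran from 1046 to 1494. Both were higher, 0.051 and 0.077, without the 4 libraries named for Xist.

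Epas1 (HIF-2 alpha), the oxygen-regulated factor abundant in endothelium, had the smallest p of the 10 factors in 3 of the 6 comparisons. It was read at 3074, 3146, 2880 and 3365 in vehicle, and at 3610, 3572, 3377 and 3283 with apical agonist. With basal agonist it was 3176, 3214, 3402 and 3713. With apical agonist 3 of 4 libraries lay above all vehicle libraries, and with basal agonist 2 of 4. The log2 difference from vehicle was 0.15 ± 0.06 with apical agonist (rank 13 of 12249 genes by p, limma adjusted p = 1.0) and 0.12 ± 0.06 with basal agonist (adjusted p = 1.0). After quantile normalization both were 0.05, and without the 4 libraries named for Xist they were 0.14 and 0.12. With S1P, Epas1 was 3305, 3296, 3138 and 3317 on the apical side and 3072, 3197, 3222 and 3217 on the basal side, all inside the vehicle range. The difference from vehicle was 0.03 ± 0.06 with basal S1P, basal minus apical S1P was −0.04 ± 0.06, and basal S1P minus the other 3 treatments was −0.08 ± 0.05 (adjusted p = 0.920). The agonist and S1P were given at different concentrations, so their values stand side by side only, and all comparisons with vehicle share the same 4 vehicle libraries.

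Tal1, a basic helix-loop-helix factor of blood and endothelial progenitors, was read at 458, 477, 436 and 460 in vehicle and 430, 396, 419 and 445 with basal S1P. Of the basal S1P libraries 3 lay below every vehicle library and replicate 4 overlapped. The log2 difference was −0.12 ± 0.06 (limma adjusted p = 0.756), and −0.04 ± 0.06 from apical S1P. The first was −0.085 without the 4 libraries named for Xist. Within each replicate number the basal S1P library was below the vehicle library, in 4 of 4. The same count was 4 for Fli1 and Nr2f2, 0 for Ets1 and 2 or 3 for the other factors. For Fli1 replicates 1 and 3 were nearly equal, at 892 against 894 and 708 against 709. The share of all genes with such a count was not computed, and the numbers were not taken to pair basal S1P with vehicle.

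**Figure D2:**
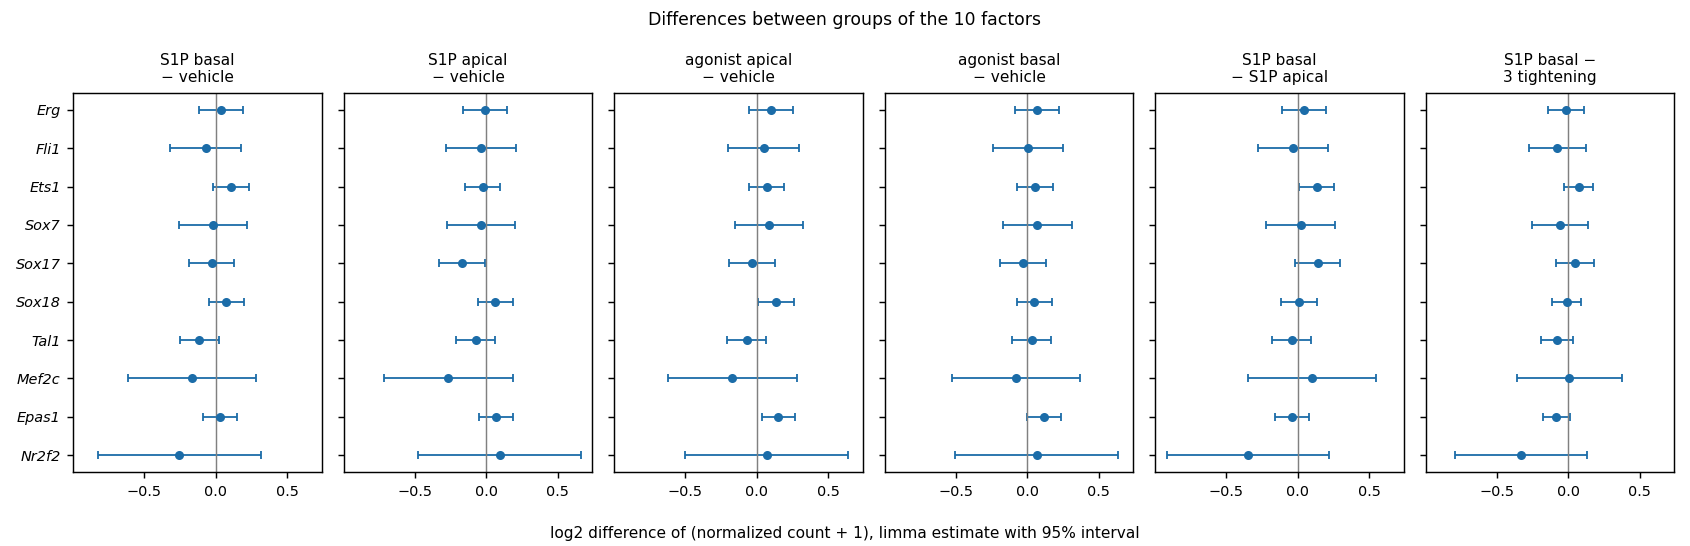
Differences between groups for the 10 factors, one panel per comparison, on the log2(normalized count + 1) scale. Points are limma estimates and bars 95% intervals; the intervals of Mef2c and Nr2f2 are the widest, and no estimate passed the adjusted threshold in any panel.

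The precision of these comparisons separated the factors into a narrow and a wide class. Over the 4 comparisons with vehicle, the 95% limma intervals of the 8 factors other than Mef2c and Nr2f2 ran from −0.33 to 0.32 on the log2 scale, which is 0.797-fold to 1.25-fold of the deposited values. Abundant genes span a narrower range in this table than in the knockout table, as given with the levels, and the bearing of that on these folds was not tested. The intervals of Mef2c ran from −0.72 to 0.37 and those of Nr2f2 from −0.82 to 0.66. All these intervals come from the fit without a replicate block. Replicate numbers were taken to pair vehicle with apical S1P and with either agonist, as given under the processing, and the intervals leave that out.

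Mef2c, a MADS-box factor that responds to calcium and to histone deacetylase release, was read at 1038, 936, 772 and 1031 in vehicle. With apical S1P it was 1060, 875, 585 and 682, and with basal S1P 1010, 669, 650 and 1113. The groups overlapped throughout, and the difference was −0.17 ± 0.21 for basal S1P against vehicle, −0.27 ± 0.21 for apical S1P against vehicle and 0.10 ± 0.21 for basal against apical S1P. Without the 4 libraries whose Xist level did not match their number, the first was −0.058 and the last 2 had the opposite sign, 0.038 and −0.096. With 1 library left out at a time the first ran from −0.30 to −0.044.

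The spread of the Mef2c values did not follow treatment. The 20 wild-type values were cut at their widest gap, a place chosen from the values themselves. This put 8 libraries in a lower range of 585 to 772 and the other 12 between 875 and 1113. Narrower steps lay between 697 and 772 and between 936 and 1009, and whether 2 separate ranges exist was not tested. The lower range held all 5 libraries of replicate 3 and all 4 libraries named above for Xist, with apical S1P replicate 3 belonging to both sets. Xist was 525 to 1608 in the 8 libraries of the lower range. In the 12 others it was at most 244 in 9 libraries and at least 2251 in 3. The part of the mix of male and female mice in the Mef2c level was not tested.

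Nr2f2 (COUP-TFII), the factor that maintains venous identity and is also expressed in mural cells, varied most. It was read at 537, 453, 275 and 309 in vehicle (393.5 ± 123) and at 476, 367, 247 and 237 with basal S1P (332 ± 113). With apical S1P it was 525, 426, 401 and 300, with apical agonist 611, 439, 299 and 313, and with basal agonist 515, 443, 312 and 348. The groups overlapped widely, and the first replicate was the highest in all 5 groups. The log2 difference for basal S1P was −0.25 ± 0.27 against vehicle, −0.35 ± 0.27 against apical S1P and −0.33 ± 0.22 against the other 3 treatments (adjusted p = 0.920). All 3 were further from 0 without the 4 libraries named for Xist, at −0.32, −0.64 and −0.46, and none was called. That fit keeps only replicates 1 and 2 of apical S1P, where Nr2f2 was highest in every group, and drops replicate 2 of basal S1P. The groups then differ in their mix of replicate numbers, and the part of this in the larger differences was not tested. With 1 library left out at a time the 3 differences ran from −0.45 to −0.086, −0.54 to −0.21 and −0.52 to −0.19. A fit with replicate number as a block called the last of the 3 (limma adjusted p = 0.0410). Within each replicate number the basal S1P library was below the vehicle library and below all 3 libraries of the other treatments, in 4 of 4 numbers. The share of all genes with such counts was not computed, and the numbers were not taken to pair these groups.

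Pericyte markers differed between replicate numbers, as Nr2f2 did. Summed over the 10 of 11 pericyte markers in the table, they ran from 2180 to 2856 in the libraries of replicate 1, 1601 to 2281 in replicate 2, 995 to 1800 in replicate 3 and 276 to 949 in replicate 4, where Nr2f2 ran from 476 to 611, 367 to 453, 247 to 401 and 237 to 348. Replicates 1 and 2 were high for both. Between replicates 3 and 4 the groups differed. In vehicle and with either agonist Nr2f2 was higher in replicate 4 and the marker sum higher in replicate 3. With S1P both were higher in replicate 3. Nr2f2 was 401 against 300 with apical S1P and 247 against 237 with basal S1P, and the sums were 1800 against 949 and 1069 against 318. Replicates 3 and 4 of apical S1P are among the libraries named for Xist. By treatment the marker sum ran from 323 to 2856 in vehicle, 949 to 2849 with apical S1P and 318 to 2320 with basal S1P. Of 8 pericyte markers tested, 0 had a higher mean with basal S1P than with the other 3 treatments (median log2 difference −0.33), and 2 of 8 a higher mean than in vehicle (median −0.38). Against apical S1P, 0 of 8 pericyte markers (median −0.77), 0 of 8 smooth muscle markers (−0.82) and 0 of 4 fibroblast markers tested (−0.77) had a higher mean with basal S1P. None of these markers was called. Without the 4 libraries named for Xist the pericyte medians were −0.55 against the other 3 treatments, −0.47 against vehicle and −1.38 against apical S1P, with 0 of 8 higher in each. Here too apical S1P keeps only replicates 1 and 2, which were high for these markers, and basal S1P loses replicate 2. The part of mural and fibroblast cells in the Nr2f2 values was not tested, and in bulk RNA fewer cells of a type and less RNA per cell cannot be told apart.

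**Figure D3:**
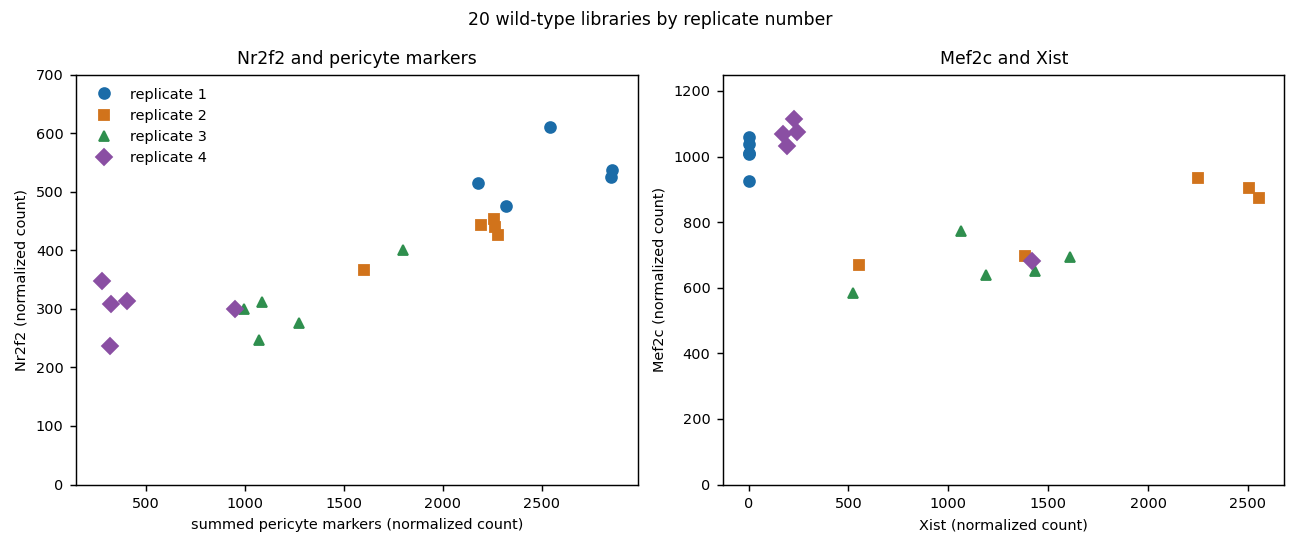
Left, Nr2f2 against the summed pericyte markers, and right, Mef2c against Xist, in the 20 wild-type libraries, all in normalized counts on linear axes, with shape and colour for the replicate number. Replicate 1 libraries are highest for Nr2f2 (476 to 611), and the 8 libraries with Mef2c at 585 to 772 all have Xist between 525 and 1608.

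The label with the larger share of the spread differed between the factors. Over all 20 wild-type libraries the SD of log2(normalized count + 1) was 0.40 for Nr2f2 and 0.31 for Mef2c, above the median of all tested genes (0.18). It was 0.16 for Fli1 and Sox7, 0.11 for Sox17, 0.10 for Erg, 0.09 for Tal1 and Epas1 and 0.08 for Ets1 and Sox18, so 8 of 10 factors were below that median. That median is over genes of all levels, while these 8 stood at percentiles 74.7 (Tal1) to 99.9 (Epas1) by level per kb. Mef2c and Nr2f2 stood at 53.8 and 43.5. Abundant genes span a narrower range here than in the knockout table, and the part of level in the SD was not tested. Replicate number accounted for 81.1% of the variance of Nr2f2, 80.5% of Fli1 and 63.7% of Mef2c, and treatment for 11.0%, 6.31% and 8.91%. For Epas1 the order was the opposite, 11.8% by replicate number and 44.0% by treatment, and Sox18 (7.66% and 31.0%), Tal1 (31.9% and 36.4%) and Ets1 (25.4% and 33.3%) also had the larger share by treatment. These 4 of 10 factors compare with 17.4% of all tested genes, and the shares are a description with no test. If the labels carried nothing, the shares would average 15.8% by replicate number and 21.1% by treatment. The order turned for Ets1 when apical S1P replicate 3 or basal S1P replicate 2 was left out, and for Tal1 when vehicle replicate 2, basal agonist replicate 2 or 3 or basal S1P replicate 2 was. For Sox17, whose shares were 31.5% and 29.7%, it turned without any 1 of 7 libraries, and for the other 7 factors leaving out any single library did not turn it. The shares of Sox18 were close to each other after quantile normalization, at 20.5% by replicate number and 21.3% by treatment. They were 38.3% and 39.4% without the 4 libraries named for Xist. Without the 4 libraries named for Xist 3 of 10 factors had the larger share by treatment, and the shares of Ets1 were 71.8% by replicate number and 42.6% by treatment. With libraries left out the groups are unequal, so the shares of the labels overlap and do not add up. Medians over all tested genes were 42.9% by replicate number and 13.9% by treatment. S1P apical replicate 3 was the lowest of the 20 libraries for 6 of the 10 factors (Fli1, Ets1, Sox7, Sox17, Tal1 and Mef2c). The share of all genes lowest in this library was not computed. It is named for Xist, and its fibroblast markers summed to 730, against 102 to 171 in the other libraries of replicate 3. Its smooth muscle markers summed to 2491, against 1388 to 1830.

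**Figure D4:**
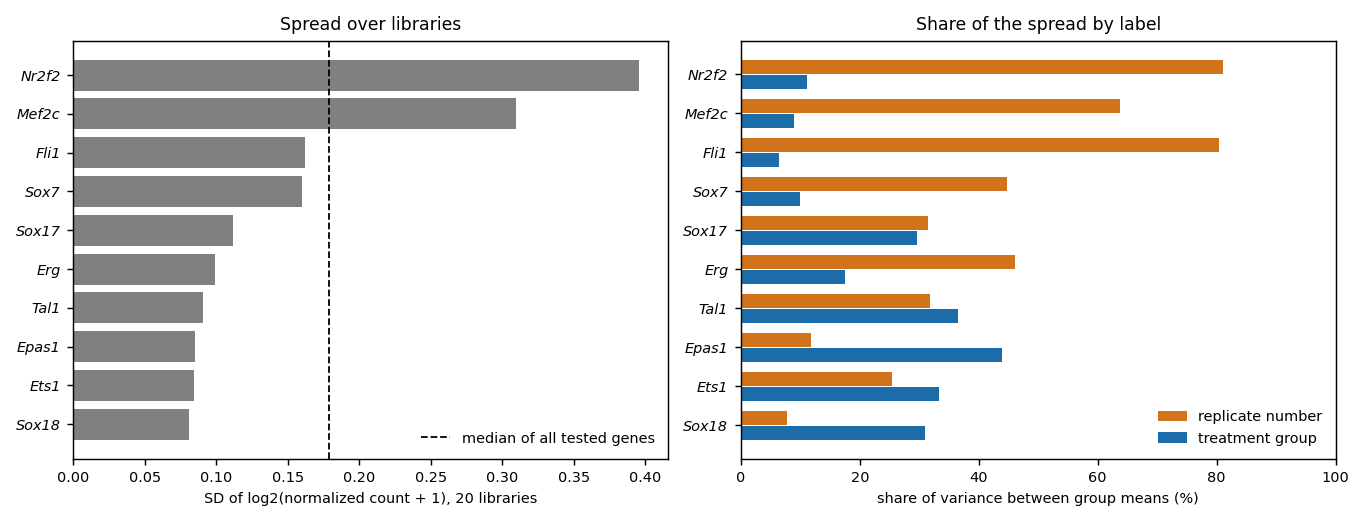
Left, SD of log2(normalized count + 1) over 20 wild-type libraries for each factor, with the median of all tested genes (0.18) as a dashed line. Right, the percent of each factor's variance that lies between replicate numbers and between treatment groups; Nr2f2 and Fli1 exceed 80% by replicate number, and Epas1 has 44.0% by treatment.

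Levels can be compared between genes only per length, and were divided by the merged exon length of GENCODE M21. In wild-type vehicle Epas1 was highest at 557 ± 35.8 normalized counts per kb (SD, n = 4), followed by Sox18 at 486 ± 19.1, Sox7 at 393 ± 24.4 and Erg at 342 ± 32.6. Fli1 (237 ± 23.5), Ets1 (190 ± 13.1) and Sox17 (153 ± 7.42) came next, and Tal1 (105 ± 3.84), Mef2c (60.1 ± 7.88) and Nr2f2 (45.6 ± 14.2) were lowest. The libraries of Sox7 and Erg, of Fli1 and Ets1, and of Mef2c and Nr2f2 overlapped, so the order within those pairs is not set by these data. Mef2c has a merged exon length of 15715 bases against 1620 for Sox18, so the per-kb order also depends on how much of each gene model these cells transcribe.

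The 4 libraries labelled S1P4 knockout gave the same order of means for all 10 of 10 factors on the per-kb scale, with overlapping libraries for Epas1 and Sox18 and for Fli1 and Ets1. The knockout table gives other gene ends for Fli1, Ets1 and Epas1, while the same exon lengths were used for both tables. Epas1 was highest at 6931 ± 960 per kb, with libraries at 41941, 44120, 36764 and 32159 normalized counts, and Sox18 next at 6311 ± 540, with 9535, 9550, 10439 and 11372. Erg was read at 7039, 6908, 5648 and 6717, Fli1 at 3623, 3560, 2724 and 3130, and Ets1 at 7457, 7046, 5963 and 6423. In this group the replicate 3 library was the lowest for Erg, Fli1 and Ets1. Sox7 was read at 7952, 8245, 7838 and 7846, Sox17 at 2236, 2278, 2269 and 2634, and Tal1 at 971, 910, 964 and 865. Mef2c was read at 2670, 2593, 2327 and 2116 and Nr2f2 at 1071, 1114, 1154 and 603, beside summed pericyte markers of 871, 1194, 942 and 427. The Nr2f2 and pericyte values were lowest in the same library, replicate 4.

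The knockout table differs from the wild-type table in scale, so no test was made between them. The highest factor was 12.2 times the lowest per kb in wild-type vehicle and 60.7 times in the knockout table. With each library scaled to the same total of 1000000, Epas1 was 680 in wild-type vehicle and 2206 in the knockout table (log2 difference 1.70), Sox18 172 and 581 (1.76), Tal1 100.0 and 52.8 (−0.92) and Nr2f2 85.9 and 56.2 (−0.61). Genes of other levels shifted too: the median log2 difference was −1.55 in the 10% of genes lowest per kb in wild-type vehicle and 0.16 in the highest 10%, which hold Epas1 and Sox18. In the 10% groups by level that hold Tal1 and Nr2f2 it was −0.69 and −1.07. The highest value of any gene was 8346 in the wild-type table and 266381 in the knockout table. The genotype and the separate processing of the tables cannot be told apart.

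**Figure D5:**
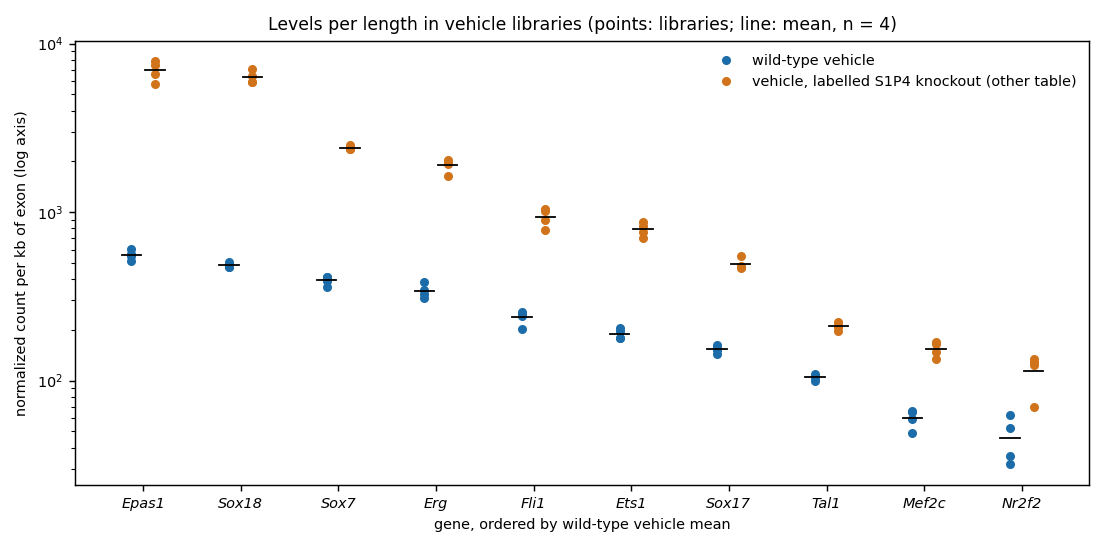
Normalized count per kb of exon (log axis) of the 10 factors in the 4 wild-type vehicle libraries and in the 4 vehicle libraries labelled S1P4 knockout, which come from a separately normalized table. Points are libraries and lines are means; both sets run from Epas1 (557 and 6931) down to Nr2f2 (45.6 and 114).

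Genes with the most similar pattern were sought by the Pearson correlation of log2(normalized count + 1) over the 20 wild-type libraries, which share replicate numbers and so are not independent. For Erg they were Sptan1 (r = 0.87), Klc1 (0.86) and Map4 (0.84). For Sox17 they included Dapk2 (0.89) and Gsap (0.87), and for Nr2f2 they were Depdc1b, Asap3 and Pknox2 (0.95 each). Among the factors themselves the highest correlation was between Fli1 and Nr2f2 (0.73) and the lowest between Sox17 and Nr2f2 (−0.67), over the same 20 libraries.

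Lists of genes around these factors held 1 called gene in the 6 comparisons. Of 14 tested other ETS family genes (16 listed), 19 partners and paralogues of the factors (22 listed), 28 known endothelial targets of ETS, SOX or TAL1 factors, 14 arterial and 12 venous genes, none was called by limma in any of the 6 comparisons. Of 23 tested other endothelial transcription factors (24 listed), Casz1, a zinc finger factor of vessel assembly, was called in 1 comparison, basal S1P against the other 3 treatments. Casz1 was read at 135, 119, 97 and 149 in vehicle, 116, 99, 74 and 114 with apical S1P, and 49, 38, 74 and 58 with basal S1P. The basal S1P libraries all lay below the vehicle libraries and met the apical S1P libraries only at 74. Casz1 fell by 0.99 ± 0.17 on the log2 scale against the other 3 treatments (adjusted p = 0.0329). Against vehicle the difference was −1.20 ± 0.21 (adjusted p = 0.0523). The call against the other 3 treatments was lost when any of 9 of the 16 libraries compared was left out, with adjusted p from 0.0511 to 0.112. These were apical agonist replicates 1 and 4, basal agonist 3 and 4, apical S1P 1 and 2, and basal S1P 1, 2 and 4. Without the 4 libraries named for Xist the difference was −0.91 (adjusted p = 0.0916), after quantile normalization −0.96 (adjusted p = 0.0575), and with only the 16 libraries fitted −0.99 (adjusted p = 0.0888).

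Of the known targets, 22 of 28 had a higher mean with basal S1P than with vehicle (median log2 difference 0.08), 23 with apical S1P (0.06), 27 with apical agonist (0.10) and 25 with basal agonist (0.08), where about as many genes were higher as lower overall (48.5% to 52.5% higher). After quantile normalization these counts were 17, 22, 22 and 22 of 28, and without the 4 libraries named for Xist 18, 20, 26 and 25. The 4 counts share the vehicle libraries. Nos3, the endothelial nitric oxide synthase, had the smallest p with basal S1P (0.19 ± 0.06 against vehicle, adjusted p = 0.756). Esam, Cdh5 and Pecam1, junction proteins of endothelium, had the smallest with apical agonist (0.14, 0.15 and 0.15, adjusted p = 1.0 each). Of the other endothelial transcription factors, 19 of 23 had a lower mean with basal S1P than with vehicle (median −0.12) and 16 of 23 a lower mean than with the other 3 treatments (−0.13), and without the 4 libraries named for Xist 15 in each. Foxf2, a factor of brain pericytes and endothelium, differed by −0.20 ± 0.06 in the latter comparison (adjusted p = 0.352). Among partners and paralogues, Gata2, which binds beside Tal1, differed by −0.22 ± 0.06 in the same comparison (adjusted p = 0.290). Among ETS relatives Etv4 had the smallest p with basal S1P against vehicle, at 0.30 ± 0.12 (adjusted p = 0.756). Of the venous genes, whose identity Nr2f2 maintains, 4 of 12 had a higher mean with basal S1P than with vehicle (median −0.12), and Selp, the gene of P-selectin, differed by −1.17 ± 0.45 (adjusted p = 0.756). Of the arterial genes 5 of 14 had a higher mean in that comparison (median −0.05), 8 of 14 without the 4 libraries named for Xist, and Gja5, an arterial connexin, differed by −0.19 ± 0.09 (adjusted p = 0.756).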

How the data were processed

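RNA was measured in 24 libraries, 4 in each of 6 groups taken from the sample titles. Per the submitters' processing notes, the tools were STAR 2.7.3a, featureCounts 1.6.5, DESeq2 1.26.0, Trimmomatic 0.38 and FastQC on mm10, listed with no role or order; strand setting and duplicate handling are not stated. The authors deposited 1 table of signal per gene for the wild-type and 1 for the knockout libraries; these whole numbers are normalized counts, rounded, so no count model was used. The knockout table lists 18029 genes on 2 identical rows, of which 1 was kept. Depth is unknown, and precision rests on 4 libraries per group.

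Group means of log2(normalized count + 1) were fitted with limma 3.58.1 (R 4.3.3) over the 20 wild-type libraries, with a mean-dependent prior, a minimum mean of 10 and Benjamini-Hochberg adjustment over 12249 genes. This scale understates changes of low genes. The fit was tested on simulated data. The knockout table was not tested against the wild-type table. Alternatives were scaling, pseudocount, filter, prior, libraries fitted, a replicate block, leaving out each library, and leaving out 4 libraries by Xist.

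The members and lists were chosen with earlier results of these data known. All members are named in both basal S1P comparisons with vehicle and with apical S1P, the 3 with the smallest p elsewhere, and of each list the called genes or up to 3 with the smallest p; not all of these are printed. Genes of like pattern are the 3 with the highest Pearson r for each of Erg, Sox17 and Nr2f2, and 1 of them is not reported here. The labels do not tie a replicate number to a pool of mice. Deviations from group means correlated above 0.1 in all 4 same-numbered pairs for apical S1P (0.375 to 0.664), apical agonist (0.428 to 0.777) and basal agonist (0.721 to 0.773) against vehicle. The numbers were therefore taken to pair these libraries, and the replicate block changed no call there. For apical S1P the own number was the best match in 3 of 4 pairs. Replicate 4 correlated at 0.396 with its own number and at up to 0.705 with another, and it is among the libraries named for Xist. The SE, intervals and p-values printed for these comparisons come from the fit without the block. The spread behind each p-value is that between libraries, which may be partly technical.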

Additional observations from a re-analysis of the deposited data

Results flagged for a closer look

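The 10 factors were screened in each of the 6 groups, 60 groups of 4 libraries in all, for 1 library far from the other 3, by Dixon's ratio of the gap to the range against its 95% critical value. Chance flags about 1 in 20 such groups, and 5 of 60 were found. Nr2f2 was low in replicate 4 of the libraries labelled knockout, at 603 where the nearest other library was at 1071. Sox17 was high in replicate 4 of the same group, at 2634 against 2278. With basal S1P, Sox18 was high in replicate 2, at 920 against 812, and Epas1 was low in replicate 1, at 3072 against 3197. With apical S1P, Epas1 was low in replicate 3, at 3138 against 3296. Basal S1P replicate 2 and apical S1P replicate 3 are among the 4 libraries named for Xist, and groups of 3 are too small for this screen, so it was not repeated without them.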

How the results depend on the processing

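Across the 31 settings other than the reported one, the count of factors called was 0 in every comparison with 1 exception. With the replicate block, 1 factor was called in basal S1P against the other 3 treatments: Nr2f2, at a log2 difference of −0.33 and a limma adjusted p of 0.0410. The same block gave Nr2f2 adjusted p = 0.217 against vehicle and 0.0983 against apical S1P. Same-numbered libraries of basal S1P and vehicle correlated at 0.805, 0.583 and 0.678 for replicates 1, 3 and 4 and at 0.0291 for replicate 2, whose basal S1P library is named for Xist. For basal and apical S1P they ran from −0.345 to 0.727, with apical agonist from 0.381 to 0.785 and with basal agonist from −0.0368 to 0.738. Since not every pair was above 0.1, the numbers were not taken to pair basal S1P with vehicle or with the 3 treatments together. The block moved the counts of all genes called from 3, 3 and 6 to 47, 83 and 137 for basal S1P against vehicle, apical S1P and the other 3 treatments. Own-number correlation was the best in 3 of 4 and 2 of 4 pairs for the first 2 of these. Fitting only the libraries compared gave 0, 1 and 3 genes, and leaving out 1 library at a time 2 to 4, 1 to 3 and 3 to 9. Without the 4 libraries named for Xist, basal against apical S1P gave 0 genes.

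None of the differences that changed sign was called, and the cause was not tested; the largest was Mef2c for apical S1P against vehicle, −0.27 as reported. After quantile normalization Epas1 was −0.033 for basal S1P against vehicle, and Sox7 and Sox18 were −0.00096 and −0.013 for basal against apical S1P. Without the 4 Xist libraries Sox7 was 0.051 for basal S1P against vehicle and Mef2c 0.038 for apical S1P against vehicle, and for basal against apical S1P Sox18 was −0.0040 and Mef2c −0.096. With 1 library left out at a time, basal S1P against vehicle ran from −0.012 to 0.095 for Erg, −0.074 to 0.051 for Sox7, −0.0074 to 0.067 for Epas1 and −0.068 to 0.012 for Sox17. Basal against apical S1P ran from −0.12 to 0.035 for Fli1, −0.041 to 0.031 for Sox18, −0.069 to 0.10 for Sox7 and −0.038 to 0.25 for Mef2c. Rescaling moved the median of all genes by less than 0.1 on the log2 scale. With 4 libraries per group and no known depth, differences inside the intervals given for each factor were not resolved.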
